A study of Mus musculus with 8 samples.

Results

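The genes described here are 10 members of the glycolytic pathway in pancreas T cells of non-obese diabetic (NOD) mice, which become diabetic spontaneously through autoimmunity. They are the glucose transporter Slc2a1 and the enzymes Hk1, Pfkp, Aldoa, Tpi1, Gapdh, Pgk1, Eno1, Pkm and Ldha, chosen by symbol among the 32285 features of 8 single-cell libraries. All 10 were found, and all 10 passed the low-count filter in every comparison as reported; with depth-matched cells 9 passed in the Foxp3, Pdcd1 and Mki67 comparisons. One symbol, Aldoa, occurs at 2 features: the second identifier had 0 UMIs, so Aldoa here is ENSMUSG00000030695. A UMI (unique molecular identifier) marks 1 captured RNA molecule.

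Each library held pancreas cells sorted for CD45, CD3 and the T cell receptor beta chain, frozen, and then processed together with the 3′ chemistry of 10x Genomics. The active library came from NOD mice with blood glucose above 600 mg/dl and the onset library from NOD mice at 250 mg/dl, with 1 library each. Newly diabetic NOD mice, at 200 to 300 mg/dl and 3 to 5 months of age in the protocol (3 to 4 in the genotype label), received either PPCA or its vehicle every day, with 3 libraries per arm labelled day 2, day 3 and day 4. PPCA combined nutlin-3 (50 mg/kg), a compound that frees p53 from MDM2, with the WEE1 kinase inhibitor MK-1775 (25 mg/kg); the vehicle was 30% EtOH, 5% Tween 20 and 65% PEG300. All mice carried the NOD background and were diabetic, so no library came from non-diabetic animals. The labels do not give the number of mice behind a library, so the p-values measure the spread between libraries.

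T cells were defined by at least 2 UMIs over Cd3d, Cd3e, Cd3g, Trac, Trbc1 and Trbc2. After cell filters 70134 T cells remained, 6145 to 11520 per library, with library medians of 3851 to 6449 UMIs per cell and 33255938 to 57276384 UMIs per library. The CD4 gate (Cd4 present, Cd8a and Cd8b1 absent) held 27437 cells, 2620 to 4715 per library. The CD8 gate (the reverse) held 21945 cells, 1635 to 4442 per library. Foxp3 was detected in 2564 T cells, 219 to 473 per library, of which 1125 (43.9%) were also CD4-gated. Between 21.69% and 35.12% of T cells fell in neither lineage gate. Any pair of libraries shared 14 to 41 cell barcodes, at most 0.431%.

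The libraries differed in several properties, some of them along the groups. CPM here stands for a gene's UMIs scaled to a gate total of 1000000. Xist was at 415.6 to 617.2 CPM in the active, onset, vehicle day 4 and PPCA day 2 libraries and at most 0.7463 in the other 4, whose Y-linked transcripts summed to 185.8 to 272.7 CPM, although the labels call the mice female. Early response and dissociation genes (10 of 10 detected) summed to 5730 CPM in vehicle day 4, 9040 in PPCA day 4 and 1520 to 3190 elsewhere. Pancreas exocrine genes (10 of 10 detected) summed to 13.1 in active, 25.2 in onset and 80.1 to 162 in the 6 treated libraries, so that active and onset lay apart from the treated groups. Erythroid genes (3 of 3) summed to 63.8 in active and at most 5.89 elsewhere. B cell genes (4 of 4) reached at most 8.88 and myeloid genes (5 of 5) at most 4.97, while 4 of 6 endocrine genes were detected, with Gcg and Ppy at 0. The part of these signals in the results below was not tested, except where a value is given.

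Glycolysis turns glucose into pyruvate in the cytosol, and lactate dehydrogenase turns pyruvate into lactate while restoring NAD+. T cells that are activated, divide or act as effectors are known to raise this pathway, under the control of factors such as MYC and HIF-1, whereas naive and many regulatory T cells are known to lean more on mitochondrial oxidation. SLC2A1 (GLUT1) brings glucose into the cell, hexokinase 1 (Hk1) traps it by phosphorylation, and the platelet-type phosphofructokinase (Pfkp) carries out the committed step. Aldolase A (Aldoa) splits the sugar and triosephosphate isomerase (Tpi1) interconverts the products. GAPDH yields NADH, phosphoglycerate kinase 1 (Pgk1) and pyruvate kinase (Pkm) yield ATP, enolase 1 (Eno1) makes the substrate of pyruvate kinase, and Ldha encodes the A subunit of lactate dehydrogenase.

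Promoter stretches of the 4 genes whose levels differed most often between T cell gates are printed to show the letters that HIF-1 is known to recognise. They come from RefSeq on GRCm38.p6, in windows of the 250 bases before each annotated start, and the capitals mark ACGTG or GCGTG on either strand (their reverse complements read CACGT and CACGC). The lines are read along the gene's own strand: Eno1 at chr4:150237099-150237151 (plus strand), Gapdh at chr6:125165801-125165839 (minus strand), Pkm at chr9:59657140-59657168 (plus strand) and Ldha at chr7:46845647-46845786 (plus strand).
Eno1: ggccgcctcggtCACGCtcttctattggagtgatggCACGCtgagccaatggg
Gapdh: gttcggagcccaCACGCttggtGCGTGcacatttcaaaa
Pkm: ctccgatccggtCACGTccgcgccgcagc
Ldha: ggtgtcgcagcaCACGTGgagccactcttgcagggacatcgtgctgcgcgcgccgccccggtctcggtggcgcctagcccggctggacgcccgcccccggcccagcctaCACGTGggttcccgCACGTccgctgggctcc
Of the 17 windows of the 10 genes 13 held ACGTG or GCGTG, as did 12679 of all 32851 promoter windows (38.6%); Tpi1 was the 1 gene with it in no window. The Ldha stretch also holds the palindrome CACGTG, which contains ACGTG on both strands; 1978 windows (6.0%) held it, and no other member did. A match is a string of letters in these windows and was not measured as a bound site.

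Over all T cells the 10 genes gave between 0.134% (PPCA day 4) and 0.181% (onset) of a library's UMIs. Gapdh contributed 23.3% of their UMIs, Ldha 19.0%, Aldoa 15.4%, Eno1 13.2% and Pkm 12.6%. Pfkp gave 5.91%, Pgk1 5.56%, Hk1 2.81%, Tpi1 1.56% and Slc2a1 0.65%. These 3′ counts carry no gene length, so the shares describe the captured UMIs. The precision of each gene follows from them: 129027 UMIs stood behind Gapdh and 3606 behind Slc2a1. The library with the highest level exceeded the lowest by 1.36-fold (Pkm) to 1.62-fold (Pfkp) in T cells.

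In CPM, Gapdh was at 327.7 in active, 430.3 in onset, 322.4, 349.7 and 370.4 in vehicle days 2, 3 and 4, and 359.4, 310.9 and 351.7 in PPCA days 2, 3 and 4. In the same order Ldha was at 263.4, 367.8, 307.7, 228.5, 306.1, 349.8, 272.9 and 249.9. Onset was the highest library for both genes, and the vehicle and PPCA arms overlapped. Eno1 was at 176.9, 240.9, 208.5, 179.0, 196.2, 247.6, 208.2 and 174.8, and Pkm at 182.2, 226.6, 201.2, 198.4, 186.2, 208.4, 179.4 and 166.6. Aldoa was at 226.3, 260.1, 272.5, 229.0, 214.6, 275.0, 245.4 and 190.9. PPCA day 4 was the lowest library for these 3 genes. Pfkp was at 99.38, 109.2, 103.9, 94.23, 71.15, 99.14, 86.59 and 67.48, with both day 4 libraries at the bottom. Pgk1 was at 95.24, 92.72, 86.48, 92.27, 84.83, 85.16, 76.36 and 64.15, lowest in PPCA days 4 and 3. The least counted genes ranged from 36.4 to 50.38 for Hk1, from 17.76 to 28.39 for Tpi1 (1.6-fold) and from 8.592 to 11.98 for Slc2a1.

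**Figure D1:**
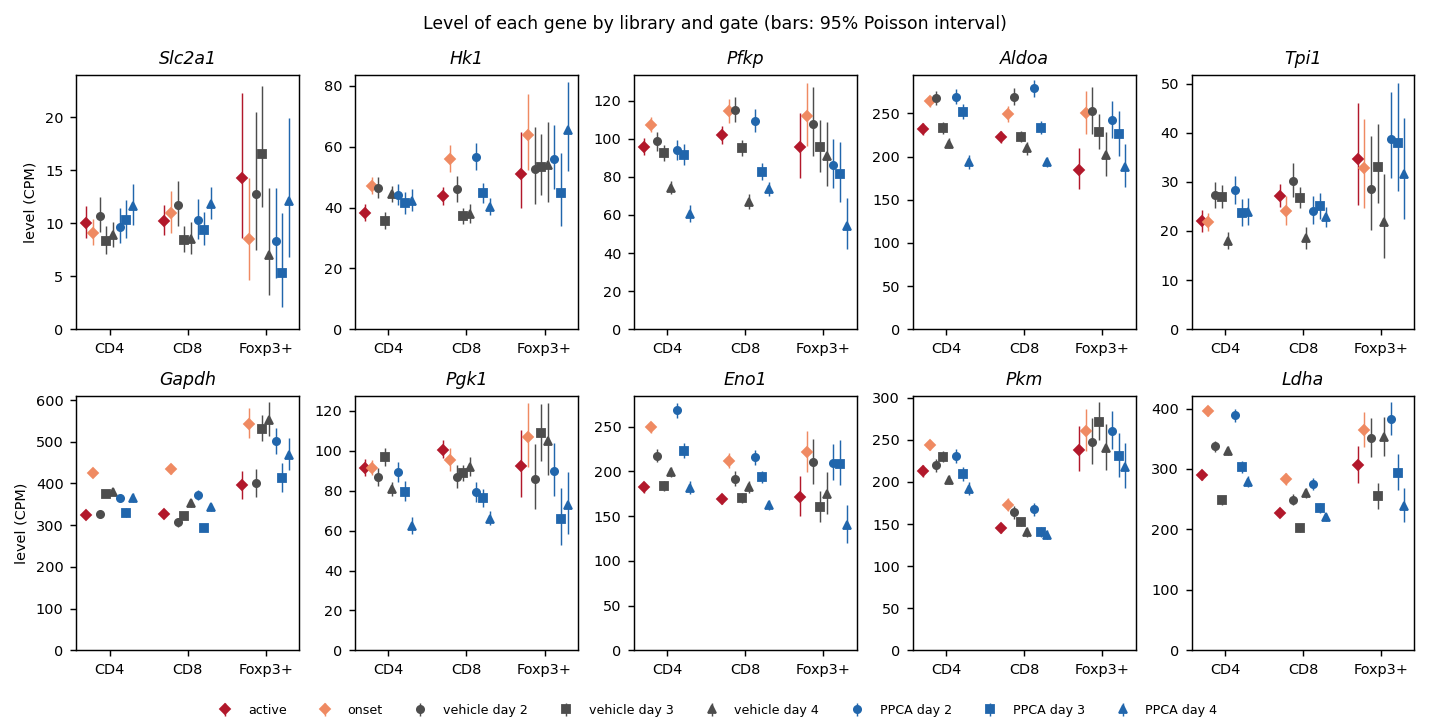
Level of each gene in CPM (vertical axes, starting at 0) for the CD4, CD8 and Foxp3-positive gates (horizontal axes) of the 8 libraries; points are single libraries and bars are 95% Poisson intervals, which cover counting error only. Pkm and Ldha sit lower in the CD8 gate than in the CD4 gate, Gapdh sits higher in Foxp3-positive cells, and Slc2a1 has the widest intervals, with 7 to 35 UMIs per library in Foxp3-positive cells.

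The first comparison set CD8-gated against CD4-gated cells of the same library. Pkm, Ldha and Eno1 were lower in CD8 cells, each in 8 of 8 libraries, while of the 7 other genes 1 was called, in the opposite direction. Pkm was at 137, 149 and 173 CPM in CD8 cells (lowest, median and highest library) against 192, 216 and 244 in CD4 cells, and the ranges did not overlap. Its log2 difference was -0.473 ± 0.024 (SE, n = 8 libraries), a 1.39-fold lower level, with an edgeR adjusted p of 2.67e-10. Ldha was at 202, 242 and 283 in CD8 cells against 248, 317 and 396 in CD4 cells, a log2 difference of -0.346 ± 0.031 (edgeR adjusted p = 2.07e-07). Eno1 was at 162, 187 and 216 against 182, 208 and 268, a smaller log2 difference of -0.136 ± 0.029 (edgeR adjusted p = 0.00136).

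In all, 4 of the 10 genes passed the adjusted threshold of 0.05 between the lineages, 1 higher and 3 lower in CD8 cells, where 46.5% of all 11533 genes tested passed (23.5% higher and 23.0% lower). The fourth was Pfkp, at log2 0.123 ± 0.044 and higher in 6 of 8 libraries. Its call was lost when libraries were scaled by their totals alone (log2 0.08, edgeR adjusted p = 0.158), and also without active, vehicle day 2, vehicle day 3, PPCA day 2 or PPCA day 4 (adjusted p = 0.0594 to 0.119). The median log2 difference of the 10 genes was 0.033, against 0.00092 over all genes. Scaling by library totals put 36.9% of all called genes on the higher side instead of 50.6%, and then also called Gapdh lower (log2 -0.0757, edgeR adjusted p = 0.0455).

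Of 59 other genes of glucose metabolism and its control, 51 were tested between the lineages and 33 passed, 13 higher and 20 lower in CD8 cells. Among those higher were the glucose uptake inhibitor Arrdc4 (log2 1.61), the inducible hexokinase Hk2 (1.12), the lactate transporter Slc16a1 (0.823) and the prolyl hydroxylase Egln3 (0.679). Among those lower were aldolase C (Aldoc, -1.47, from 2 to 9 UMIs in a CD8 sum), the B subunit of lactate dehydrogenase (Ldhb, -1.39), muscle-type phosphofructokinase (Pfkm, -0.711) and the hypoxia factor Hif1a (-0.534). Both lactate dehydrogenase subunits were therefore lower in CD8 cells. The calls of Egln3 and Hif1a were lost under at least 1 alternative (highest adjusted p 0.415 and 0.164), and those of the other genes named here were not. CD8-gated cells had the higher median UMI count in 8 of 8 libraries, and Pkm and Ldha were also called when cells were matched for depth or thinned to 2000 UMIs.

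Within the CD4 gate, cells with a Foxp3 UMI were set against those without. Foxp3 is the defining factor of regulatory T cells, and the other markers rose with it: Il2ra by log2 4.69, Ikzf2 by 4.39, Ctla4 by 3.41 and Tnfrsf18 by 1.42. Gapdh rose in Foxp3-positive cells and Eno1, a later enzyme, fell. Gapdh was at 417, 522 and 604 CPM in Foxp3-positive cells against 321, 355 and 423 in Foxp3-negative cells, higher in 8 of 8 libraries (log2 0.304 ± 0.050, edgeR adjusted p = 6.43e-06). Eno1 was at 138, 174 and 233 against 183, 208 and 271, lower in 7 of 8 libraries (log2 -0.416 ± 0.059, edgeR adjusted p = 5.18e-07).

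Hk1 was at 49.8, 57.1 and 70.5 CPM in Foxp3-positive cells against 34.9, 42.3 and 46.4, without overlap between the gates (log2 0.257 ± 0.086, edgeR adjusted p = 0.0211). Tpi1 was higher by log2 0.377 ± 0.13, in 7 of 8 libraries, from as few as 13 UMIs in a Foxp3-positive sum. Aldoa (log2 -0.294) and Ldha (-0.185) were also called, so that 6 of 10 genes passed, 3 in each direction, where 30.2% of all 10452 genes tested passed (14.7% higher and 15.4% lower). Their median log2 difference was -0.088, against -0.026 over all genes. These directions depend in part on scaling, which moved the median of all genes by log2 0.21. With library totals 83.3% of all called genes were higher, instead of 48.8%. On that scale Gapdh (0.516), Tpi1 (0.583), Hk1 (0.465) and Pkm (0.261) were higher and Eno1 was lower (-0.208), while Aldoa (-0.0853, edgeR adjusted p = 0.205) and Ldha (0.0244, adjusted p = 0.758) were not called.

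The Foxp3-positive sums held 101 to 202 cells per library, with the higher median UMI count in 0 of 8 libraries, and some calls were lost in other sets of cells. Thinning every cell to 2000 UMIs before gating left 37 to 82 Foxp3-positive cells per library, and Gapdh was then at log2 0.0228 (edgeR adjusted p = 0.926), whereas it was called in depth-matched cells, where Hk1 (0.261, adjusted p = 0.137) and Tpi1 (0.38, adjusted p = 0.0883) were not. Eno1 was called under every alternative tried. Hk1 was not called without active or onset (adjusted p = 0.0582 and 0.0824), nor Tpi1 without active or PPCA day 2 (0.0596 and 0.129). Of the 59 other pathway genes, 48 were tested and 21 passed, 13 higher and 8 lower in Foxp3-positive cells. The lactate exporter Slc16a3 (log2 3.31), enolase 3 (Eno3, 2.27), Hk2 (1.48) and Egln3 (1.43) rose most, of which Hk2 rested on 0 to 6 and Slc16a3 on 2 to 9 UMIs in a Foxp3-positive sum. Pyruvate dehydrogenase kinase 1 (Pdk1, -0.839), the glucose uptake inhibitor Txnip (-0.413), Higd1a (-0.345) and liver-type phosphofructokinase (Pfkl, -0.313) fell most.

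Pdcd1 encodes PD-1, an inhibitory receptor of antigen-experienced T cells. The gate on it gave the largest difference of any of the 10 genes among the 7 gate comparisons, for Tpi1. In the CD4 gate Tpi1 was at 34.5, 47.9 and 69.1 CPM in Pdcd1-positive cells against 17.1, 23.1 and 27.0 in Pdcd1-negative cells, 1.78-fold higher (log2 0.835 ± 0.13, edgeR adjusted p = 2.74e-06). Gapdh was at 493, 635 and 822 against 315, 351 and 419, 1.55-fold higher (log2 0.636 ± 0.057, edgeR adjusted p = 5e-12). For both genes the lowest Pdcd1-positive library lay above the highest Pdcd1-negative one. Pgk1 was at 88.8, 130 and 158 against 61.6, 84.8 and 95.8 (log2 0.414 ± 0.081), higher in 8 of 8 libraries. Pkm (log2 0.234) was higher and Eno1 (-0.355) lower, so 5 of 10 genes passed, where 26.3% of all 10513 genes tested passed (12.8% higher and 13.5% lower). The median log2 difference of the 10 was 0.22, against -0.036 over all genes.

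In the CD8 gate Pdcd1-positive cells again had more Gapdh and less Eno1. Gapdh was at 473, 579 and 664 CPM against 290, 327 and 425, without overlap (log2 0.552 ± 0.058, edgeR adjusted p = 1.71e-10). Eno1 was at 140, 155 and 178 against 162, 189 and 220, lower in 8 of 8 libraries (log2 -0.472 ± 0.067, edgeR adjusted p = 2.54e-07). Both calls held under every alternative tried. Pkm was at 191, 203 and 261 against 136, 147 and 171, also without overlap (log2 0.287 ± 0.070), and Aldoa was higher by log2 0.261 ± 0.065. In all, 4 of 10 genes passed, where 27.1% of all 10187 genes tested passed (12.9% higher and 14.1% lower).

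Scaling changed the lower calls and the number of higher ones. With library totals 7 genes were higher in Pdcd1-positive cells of each lineage, and Eno1 was still called lower in CD8 cells (log2 -0.244, edgeR adjusted p = 0.00388) but not in CD4 cells (-0.155, adjusted p = 0.0681). The median of all genes moved by log2 0.2 in CD4 and 0.22 in CD8 cells, and the share of higher calls from 48.7% to 80.1% and from 47.8% to 80.5%. The Pdcd1-positive sums held 55 to 172 CD4 and 41 to 238 CD8 cells per library, with the higher median UMI count in 6 of 8 libraries in CD4 and 0 of 8 in CD8 cells. Thinning to 2000 UMIs per cell left 14 to 64 Pdcd1-positive CD4 cells per library, and there Tpi1 (-0.736, edgeR adjusted p = 0.481), Pgk1 (-0.223, adjusted p = 0.699), Pkm (-0.201, adjusted p = 0.541) and Gapdh (0.126, adjusted p = 0.68) were not called, the first 3 with the opposite sign. Pkm in CD8 cells changed sign as well (-0.0543, adjusted p = 0.884). In depth-matched cells Pkm was not called in either lineage (0.0731, adjusted p = 0.649 in CD4 and 0.207, adjusted p = 0.0947 in CD8), nor Eno1 in CD4 cells (-0.216, adjusted p = 0.093). The call of Pkm in CD4 cells was lost without vehicle day 4 (log2 0.159, adjusted p = 0.0756).

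Of the other pathway genes, 14 of 48 tested passed in Pdcd1-positive CD4 cells, 10 higher and 4 lower. Hk2 (log2 2.02), Eno3 (1.69), Hif1a (1.61) and Egln3 (1.55) rose most, Hk2 on 0 to 8 and Egln3 on 0 to 11 UMIs in a Pdcd1-positive sum. The 4 lower genes were Txnip (-1.14), Pdk1 (-1.08), the stress gene Sesn1 (-0.774) and the AMP kinase subunit Prkaa1 (-0.735). In Pdcd1-positive CD8 cells 13 of 47 passed, 4 higher and 9 lower. The higher ones were Hif1a (0.71), Pdk3 (0.616), Vhl (0.555) and Rpia (0.433). Pdk1 (-1.76), Ldhb (-1.19), Sesn1 (-1.06) and Ddit4 (-0.734) fell most, Pdk1 on 2 to 6 UMIs in a Pdcd1-positive sum and Ldhb on 0 to 3, lower in 6 of 8 libraries. Txnip and Pdk1 were therefore lower, and Hif1a higher, in Pdcd1-positive cells of both lineages.

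**Figure D2:**
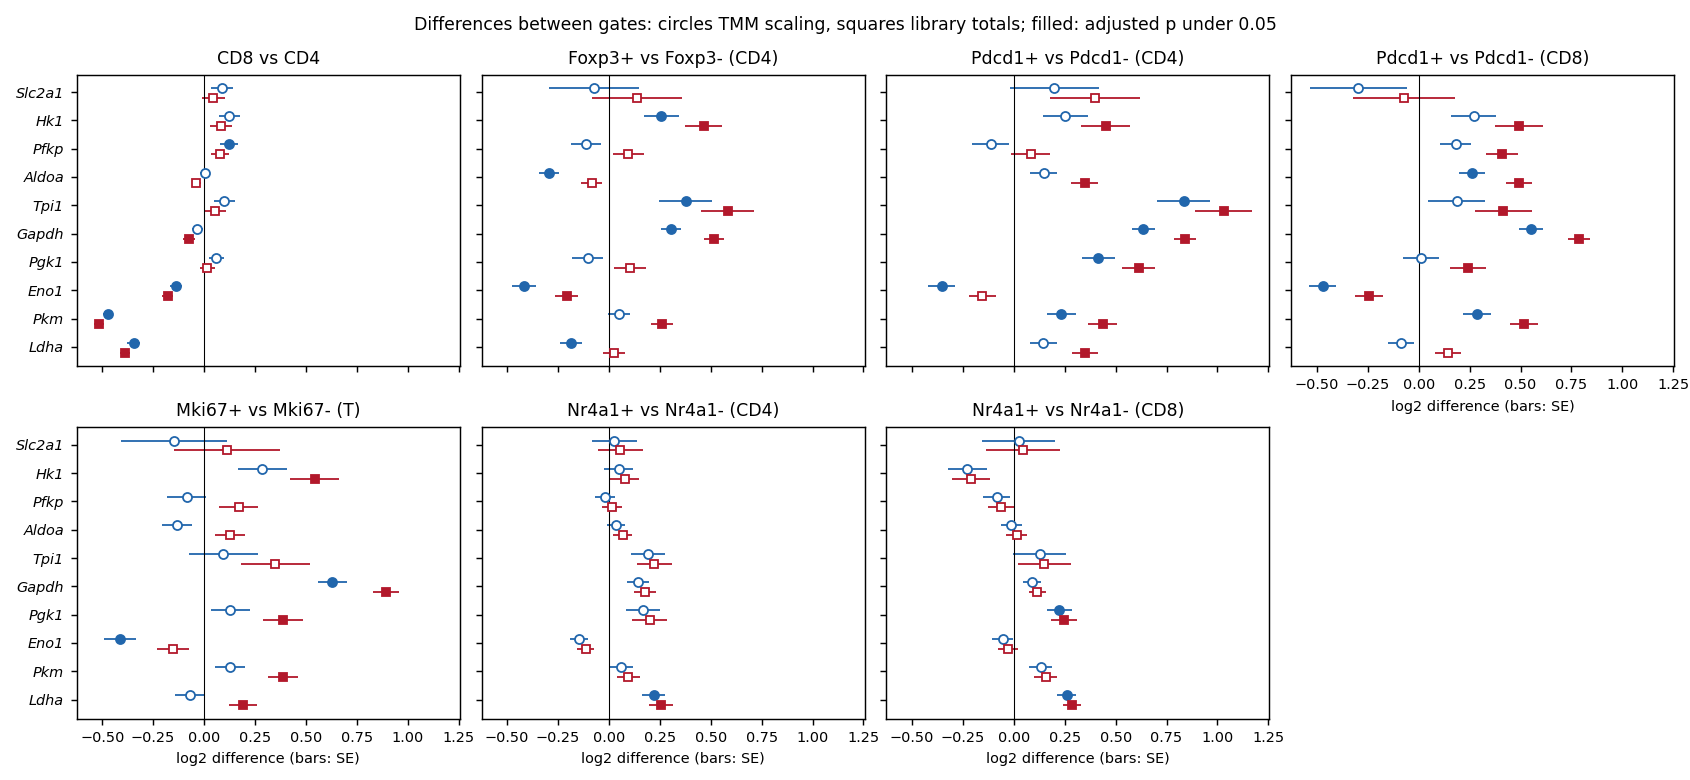
Log2 difference of each gene between 2 gates of the same libraries (horizontal axes), with genes on the vertical axes, in 7 panels; circles use TMM scaling, squares use library totals, bars are SE over 8 libraries, and filled symbols have an adjusted p under 0.05. Gapdh lies to the right in the Foxp3, Pdcd1 and Mki67 panels on both scales, Pkm and Ldha lie to the left in the CD8 panel, and Eno1 changes from filled to open between the scales in 2 of the panels, Pdcd1 in CD4 cells and Mki67.

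Mki67 marks dividing cells, and 31 to 98 T cells per library carried a UMI of it, with the higher median UMI count in 4 of 8 libraries. Gapdh was at 404, 699 and 790 CPM in Mki67-positive cells against 311, 348 and 427 in the others, higher in 8 of 8 libraries (log2 0.630 ± 0.071, edgeR adjusted p = 4.12e-11). Eno1 was at 157, 180 and 210 against 175, 202 and 249, lower in 6 of 8 libraries (log2 -0.414 ± 0.078, edgeR adjusted p = 1.87e-05). These were 2 of 10 genes, where 27.6% of all 11537 genes tested passed (12.2% higher and 15.4% lower). With library totals, which moved the median of all genes by log2 0.26 and the share of higher calls from 44.3% to 80.4%, 5 genes were higher and Eno1 was at -0.154 (edgeR adjusted p = 0.132). After thinning, which left 16 to 53 positive cells per library, Gapdh was at log2 0.262 (adjusted p = 0.129). Of the other pathway genes, 12 of 52 tested passed, 5 higher and 7 lower. Aldoc (1.73), Mxi1 (0.808), Hif1a (0.784) and the neuronal-type glucose transporter Slc2a3 (0.634) rose most, and Pdk1 (-1.49), Myc (-1.32), Ldhb (-0.96) and Sesn1 (-0.9) fell most. Aldoc rested on 0 to 3 UMIs in a Mki67-positive sum and was higher in 6 of 8 libraries, and Ldhb rested on 0 to 7 and was lower in 5 of 8. Pdk1 rested on 0 to 7 UMIs as well and was lower in 8 of 8. The calls of Aldoc, Mxi1 (on 1 to 17 UMIs), Hif1a and Slc2a3 were each lost under at least 1 alternative (highest adjusted p 0.16, 0.508, 0.0559 and 0.112). So were those of Pdk1 (0.32) and Ldhb (0.104), whereas Myc and Sesn1 were called under every alternative tried.

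Since both genes are read from the same cells, the number of Gapdh UMIs per Eno1 UMI is free of any scaling between gates; it was chosen after the values were seen and is given without a test. It was 3.37 ± 0.70 in Pdcd1-positive and 1.68 ± 0.26 in Pdcd1-negative CD4 cells (mean ± SD, n = 8 libraries). In CD8 cells it was 3.64 ± 0.51 against 1.79 ± 0.22, and in Mki67-positive T cells 3.56 ± 0.57 against 1.73 ± 0.22. The 8 libraries did not overlap between the gates in these 3 comparisons. Foxp3-positive CD4 cells had 2.85 ± 0.75 against 1.68 ± 0.25. Each of these 4 ratios was higher in 8 of 8 libraries. Such a ratio shows that the 2 genes differed unequally and not which of them changed.

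**Figure D3:**
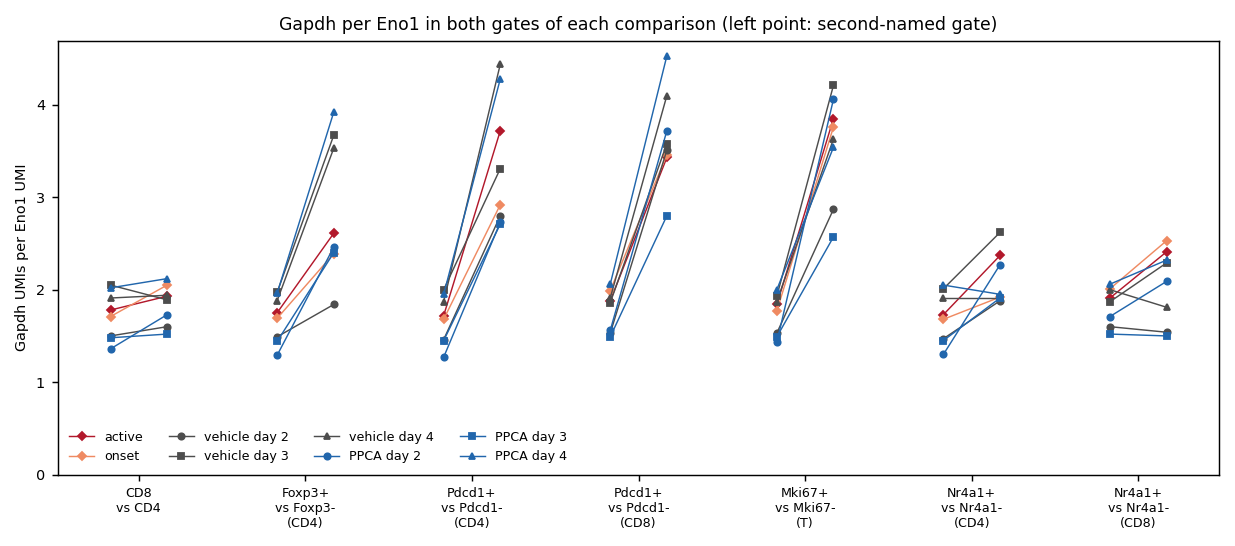
Gapdh UMIs per Eno1 UMI (vertical axis, starting at 0) in both gates of 7 comparisons; each line joins the 2 gates of 1 library, with the second-named gate on the left. All 8 lines rise in the Foxp3, Pdcd1 and Mki67 comparisons, 7 of 8 rise from CD4 to CD8, and the Nr4a1 comparisons are mixed, with 6 and 5 of 8.

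Nr4a1 is an immediate early gene of T cell receptor signalling. In cells with an Nr4a1 UMI, Ldha was the gene that stood out in both lineages. In CD8 cells it was at 238, 298 and 360 CPM in Nr4a1-positive cells against 201, 240 and 276, higher in 8 of 8 libraries (log2 0.260 ± 0.046, edgeR adjusted p = 0.000372). In CD4 cells it was at 270, 382 and 579 against 245, 313 and 386, higher in 7 of 8 libraries (log2 0.220 ± 0.056, edgeR adjusted p = 0.0261). That was 1 of 10 genes in CD4 cells, where 5.56% of all 10936 genes tested passed (3.69% higher and 1.87% lower). In CD8 cells Pgk1 passed too, at 77.3, 99.0 and 134 against 63.1, 87.4 and 100 (log2 0.223 ± 0.061, edgeR adjusted p = 0.0273), making 2 of 10, where 5.02% of 10499 passed (3.4% higher and 1.62% lower). With library totals the share of higher calls over all genes went from 66.3% to 82.1% in CD4 cells and from 67.7% to 77.4% in CD8 cells, and these 3 calls held.

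Depth and sample moved with this gate. Nr4a1-positive cells had the higher median UMI count in 8 of 8 libraries of both lineages, and in depth-matched cells Ldha was at log2 0.0905 in CD4 (edgeR adjusted p = 0.305) and 0.184 in CD8 cells (adjusted p = 0.0674), and Pgk1 at 0.151 (adjusted p = 0.403). Vehicle day 4 held 1965 of the 4423 Nr4a1-positive CD4 cells, and both day 4 libraries had the highest early response sums. In CD4 cells Ldha was not called without any 1 of the other 6 libraries (adjusted p = 0.0587 to 0.0913), and was called without vehicle day 4 (log2 0.256, adjusted p = 0.00946) and without PPCA day 4 (0.266, adjusted p = 0.00309). Pgk1 in CD8 cells was not called without onset, vehicle day 3 or any 1 PPCA library (adjusted p = 0.0521 to 0.165). Hk2, Myc, Hif1a and Pgam1 were called higher and Txnip lower in Nr4a1-positive cells of both lineages, within 6 of 49 other pathway genes in CD4 and 6 of 48 in CD8 cells. Hk2 was higher by log2 1.73 and 0.945, and Myc by 0.645 and 0.763. Except for Myc in CD4 cells, each of these calls was lost under at least 1 alternative; the highest adjusted p over the alternatives ran from 0.0453 (Myc) to 0.855 (Txnip) in CD4 and from 0.0633 (Myc) to 0.999 (Pgam1) in CD8 cells.

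The differences between gates were then compared between lineages, as the CD8 difference minus the CD4 difference; these interaction tests were added after the data had been seen. For Pdcd1, 2 of 10 passed, where 7.48% of 10973 did (3.09% higher and 4.39% lower): Tpi1 (-0.644 ± 0.19) and Pgk1 (-0.398 ± 0.12) rose more in CD4 cells. Both were lost without active (edgeR adjusted p = 0.11 and 0.104) or PPCA day 2 (0.0934 and 0.0506); Tpi1 was also lost without onset (0.0831) and Pgk1 without vehicle day 2 (0.164). For Nr4a1, 0 of 10 passed in edgeR, where 0.0% of 11464 did, although 1 of the 10 had an unadjusted p under 0.05. Neither of the 2 calls for Pdcd1 held in depth-matched cells. Of the other pathway genes, 8 of 50 tested passed for Pdcd1, 1 higher and 7 lower, and 0 of 50 for Nr4a1. Egln3 (-2.77), Eno3 (-1.96), Slc16a1 (-1.47) and Arrdc4 (-1.12) were lowest, so the CD8 difference lay below the CD4 difference, and Txnip (0.701) was the 1 on the higher side. Egln3 rested on 0 to 2 UMIs in a Pdcd1-positive CD8 sum, and the calls of Eno3, Slc16a1 and Arrdc4 were each lost under at least 1 alternative (highest adjusted p 0.774, 0.534 and 0.578). Hif1a (-0.899 ± 0.13, edgeR adjusted p = 2.02e-06) was called under every alternative tried, with an adjusted p of at most 0.000533.

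The 3 days of treatment allowed PPCA to be compared with vehicle, with the day as a block. None of the 10 genes was called between the arms in any gate by edgeR: 0 of 10 passed in all T cells and in both lineage gates, where 0.0% of 13201, 11590 and 11620 genes passed, and 0 of 10 in Foxp3-positive cells, where 0.0713% of 8412 genes passed. At an unadjusted p under 0.05 edgeR gave 1049, 800, 910 and 540 of all genes, and 1, 1, 1 and 2 of the 10. DESeq2 called 69, 34, 40 and 6 of all genes and none of the 10. The design leaves 2 residual degrees of freedom, and in simulated data of its size edgeR recovered 71%, 80.5%, 75.5% and 77% of genes changed 2-fold.

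Pgk1 came nearest to a difference. In CD8 cells it was at 87.0, 88.9 and 92.1 CPM in vehicle days 2, 3 and 4 and at 79.3, 76.2 and 66.1 in PPCA days 2, 3 and 4, so the arms did not overlap. Its log2 difference was -0.367 ± 0.092 (unadjusted p = 0.00441, edgeR adjusted p = 0.498). The arms lay apart for 1 of 10 genes in each of the CD8 and Foxp3-positive gates, and for 0 in T and CD4 cells. The share of all genes with arms apart was not counted, so these counts are no result about the members. The estimate was -0.316 in T cells, -0.285 in CD4 cells and -0.422 in Foxp3-positive cells, with edgeR adjusted p of 0.578, 0.715 and 0.729. Pgk1 is encoded on the X chromosome, and the vehicle and PPCA libraries of days 2 and 4 differed in their Xist and Y-linked transcripts. With those transcripts as a further factor the CD8 estimate was -0.366 and passed (edgeR adjusted p = 0.0391). So did 159 of all genes, in place of 0, and that fit leaves 1 residual degree of freedom. Y-linked transcripts were high in vehicle alone on day 2 and in PPCA alone on day 4, so this factor was balanced over the arms. The estimate could therefore hardly move, and the part of these transcripts in the Pgk1 difference was not tested.

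Pfkp in Foxp3-positive cells also kept the arms apart, at 108, 95.4 and 90.7 CPM in vehicle and 86.4, 81.2 and 54.1 in PPCA (log2 -0.449 ± 0.15, unadjusted p = 0.0100, edgeR adjusted p = 0.598). It was lower in PPCA on 3 of 3 days. How many of all genes kept 1 direction on the 3 days was not counted. The other 8 genes had T cell estimates between log2 -0.168 (Pkm) and 0.058 (Slc2a1). Of the other pathway genes, 0 of 54, 52, 50 and 42 tested in the 4 gates passed in edgeR. Egln1 was at log2 -0.544, -0.562, -0.427 and -0.738 (edgeR adjusted p = 0.578, 0.703, 0.676 and 0.604), lower in PPCA on 3 of 3 days except in CD8 cells (2 of 3). Its adjusted p over the alternatives ran from 0.0189, 0.00974, 0.00446 and 0.00164 to 1.0 in each gate, and the fit with the Y-linked factor called it in all 4. The PPCA difference was not called as unequal between CD8 and CD4 cells for any of the 10 genes, where 0.00822% of 12164 genes passed; at an unadjusted p under 0.05 edgeR gave 0 of the 10.

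**Figure D4:**
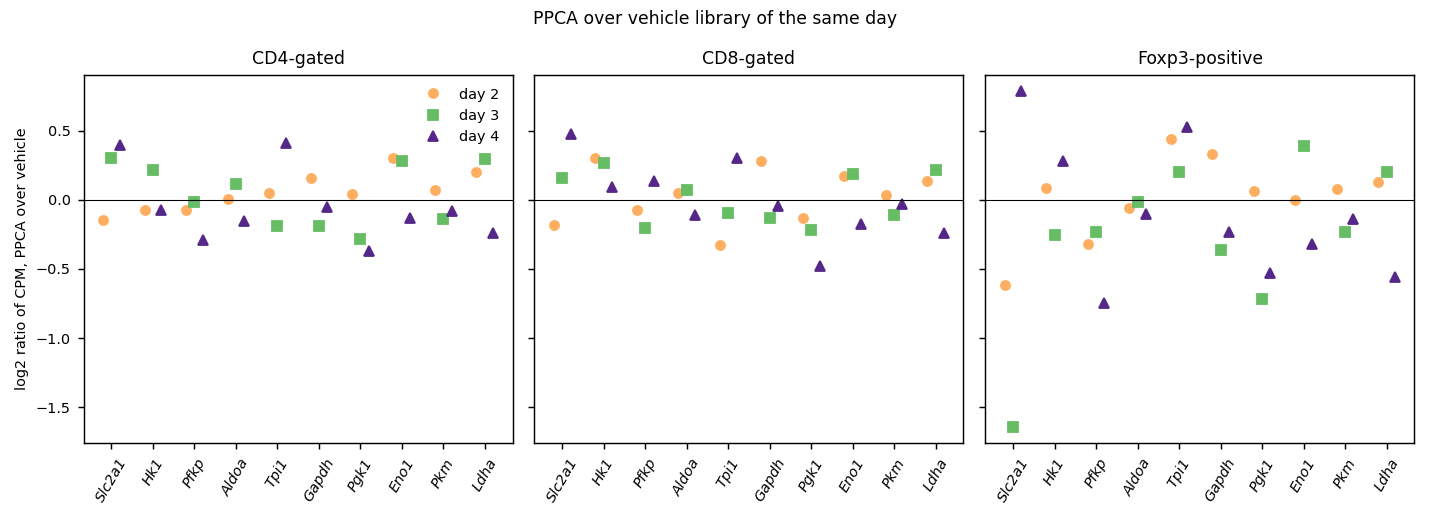
Log2 ratio of PPCA to vehicle CPM of the same day (vertical axis) for each gene (horizontal axis) in CD4-gated, CD8-gated and Foxp3-positive cells; each point is 1 pair of libraries, with day 2, day 3 and day 4 by shape. The 3 points of most genes lie on both sides of 0, whereas Pgk1 in CD8 cells and Pfkp in CD4 and Foxp3-positive cells lie below 0 on all 3 days, as does Aldoa in Foxp3-positive cells (-0.0998 to -0.0174), and Hk1 in CD8 and Tpi1 in Foxp3-positive cells lie above it; Slc2a1 in Foxp3-positive cells rests on 7 to 35 UMIs per library.

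The labelled days were compared as well, since both arms have a library on each. In T cells, day 4 against the mean of days 2 and 3 called 18.0% of all 13610 genes and 0 of the 10 members, with 1 of the 10 at an unadjusted p under 0.05. Pfkp was at log2 -0.300 ± 0.096 (edgeR adjusted p = 0.07) and Gapdh at 0.270 ± 0.12 (adjusted p = 0.147). With library totals, which moved the median of all genes by log2 -0.17 and put 29.5% instead of 56.1% of called genes on the higher side, Pfkp was called lower (-0.467, edgeR adjusted p = 0.0198). Of 55 other pathway genes tested 8 passed: Hif1a (log2 1.25), Sesn2 (1.08), Egln1 (1.05), Txnip (0.785), Mxi1 (0.661) and Bnip3l (0.366) were higher, and Ddit4 (-1.38) and the fructose bisphosphatase Tigar (-0.665) were lower on day 4. Hif1a was at 165.8 and 194.6 CPM in vehicle and PPCA day 4, and at 62.47 to 126.6 in the other 6 libraries. The early response sums were highest in the same 2 libraries, and each day has 1 library per arm, so time and handling of a day cannot be told apart.

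Active and onset diabetes were represented by 1 library each, so their values are given without a test, with 95% Poisson intervals for counting error. In T cells 7 of 10 genes were lower in the active library, and the intervals of all 7 lay below 0. How many of all genes had an interval that excluded 0 was not counted, here or in the gates below. Such counts are therefore no result about the members. Ldha was at 263.4 CPM (12524 UMIs) in active and 367.8 (18229 UMIs) in onset, a log2 ratio of -0.481 (-0.514 to -0.449). The log2 ratio was -0.446 for Eno1, -0.393 for Gapdh, -0.314 for Pkm, -0.296 for Hk1, -0.201 for Aldoa and -0.135 for Pfkp. Slc2a1 (0.13), Tpi1 (0.0999) and Pgk1 (0.0386) had intervals that included 0. None of the 10 reached 1.5-fold, which 4.24% of 7457 genes did, and the median log2 ratio was -0.25, against -0.016 over all genes, of which 52.9% were lower.

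The lineage gates gave similar values. In CD4 cells 7 of 10 genes and in CD8 cells 8 of 10 were lower in active, with 7 intervals below 0 in each, where 49.5% and 59.7% of all genes were lower; none reached 1.5-fold, which 4.07% and 6.15% of genes did. The median log2 ratio of the 10 genes was -0.19 in CD4 and -0.21 in CD8 cells, against 0.0024 and -0.061 over all genes. Gapdh was at 324.6 against 426.0 in CD4 and 326.5 against 435.2 in CD8 cells. In Foxp3-positive cells 8 of 10 were lower, where 47.8% of all genes were, 4 with intervals below 0, and Slc2a1 alone passed 1.5-fold (17.5% of genes did), on 19 against 14 UMIs with an interval that included 0. Set beside the 6 treated libraries, the active library lay inside their T cell range for 9 of 10 genes, and onset was the highest of all 8 libraries for 5 of 10. How often either held over all genes was not counted. Of the other pathway genes, 35 reached 10 CPM in either T cell library, and 2 of them passed 1.5-fold. The intervals lay below 0 for 14 and above it for 7, again without a share over all genes. The 2 past 1.5-fold were the collagen prolyl hydroxylase P4ha1, at 43.69 in active and 69.14 in onset, and Egln1, an oxygen sensor that marks HIF for degradation, at 63.86 and 34.82. The 5 hypoxia targets among the 35 were divided, with 3 intervals below 0 and 2 above. The erythroid sum of 63.8 in active against 0.343 in onset moved with this comparison. So did the exocrine sum (13.1 against 25.2) and the early response and dissociation sum (2110 against 3190). Blood glucose and library cannot be told apart here.

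**Figure D5:**
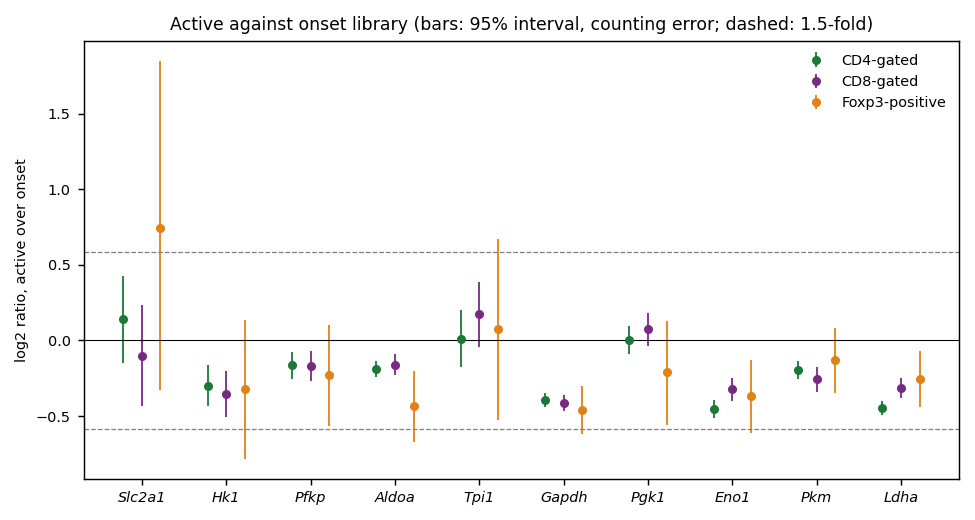
Log2 ratio of the active to the onset library (vertical axis) for each gene (horizontal axis) in CD4-gated, CD8-gated and Foxp3-positive cells; bars are 95% Poisson intervals for counting error, and dashed lines mark 1.5-fold. Gapdh, Eno1, Ldha, Pkm, Aldoa, Hk1 and Pfkp lie below 0 in all 3 gates, the intervals of Tpi1 and Pgk1 include 0 in each, and Slc2a1 in Foxp3-positive cells has the widest interval.

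The 10 genes did not vary as a block. Over the 16 sums of CD4-gated and CD8-gated cells, 37 of their 45 pairwise correlations were positive, with a median of 0.205; the 2 sums of a library share its depth and handling. The 16 sums mix differences between lineages with those between libraries, and other sets of genes were not compared. The members closest to their common mean were Aldoa (Pearson r = 0.872), Eno1 (0.824) and Pfkp (0.751), and the farthest was Slc2a1 (0.162). Each member is part of that mean, which raises its r, so these values cannot be set beside those of other genes. Among 2597 well counted genes the most alike were Aak1 (0.935), Pigx (0.92), Rhof (0.912), Commd7 (0.911) and Trir (0.905), and the least alike Rps27a (-0.832), Rps20 (-0.779) and Vgll4 (-0.776).

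In the authors' deposited table of markers for 7 named clusters 3 of the 10 genes appear. It holds 2100 rows, with 0.25 as the lowest log2 fold change. How its genes were chosen is not stated, so the absence of a gene does not give its fold change. The share of all genes that appear was not counted. The authors' deposited table gives Gapdh a log2 fold change of 0.461 in the cluster named CD8 TRM TEM, 0.334 in CD4 Th17 and 0.252 in CD4 Treg. Aldoa (0.304) and Pfkp (0.258) appear in the authors' deposited table for CD8 TRM TEM. The same authors' deposited table lists Hif1a at 1.16 in CD4 Treg and 1.15 in CD4 Th17, Slc2a3 at 0.392 in CD4 Treg and Txnip at 0.299 in CD4 Naive. The authors' deposited table also lists Eno3 (0.356) and P4ha1 (0.281) in CD4 Treg and Myc (0.424) in CD4 Th0. Those values compare cells of merged libraries, and no p from them is used here.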

How the data were processed

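The deposited UMI counts of 8 libraries (10x Genomics 3′, version 2, per the labels' protocols) were made by the authors with Cell Ranger, 6.0.0 per the file headers and 6.1.2 per the submitters' processing notes, which also name Seurat; no build is stated. The authors' deposited marker table holds, per cluster, log2 fold changes and p-values; how it was made is not stated in the labels.

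From 80470 barcodes, cells with at least 500 genes and under 10% mitochondrial UMIs were kept, the top 0.8% per 1000 barcodes by Scrublet score (6752 in all) were removed as doublets, and cells with more than 1 UMI over 6 B and myeloid genes were left out (scanpy 1.11.5). A gate is positive from 1 UMI. Raw UMIs were summed per library and gate and tested with edgeR 4.0.16 (quasi-likelihood, two-sided; TMM factors of 0.886 to 1.15; filterByExpr), with Benjamini-Hochberg adjustment over all genes and a threshold of 0.05. Gate comparisons had the library as a block, and PPCA comparisons the day. Same-day libraries deviated together in every gate (correlation 0.215 to 0.66), so the days pair them. Levels (CPM) are UMIs scaled to a gate total of 1000000. Intervals cover counting error only. The scripts were tested on simulated data, with 200 genes changed 2-fold. Alternatives were DESeq2 1.42.0 and its size factors, limma-voom 3.58.1, library totals, no low-count filter, no doublet removal, the T cell rule alone, cells thinned to 2000 UMIs, depth-matched cells, no block and leaving out libraries. Library totals, depth matching and the lineage interactions were chosen after the data were seen. The 10 genes, the pathway lists and the naming rule (all members; of the pathway genes, up to 4 called in each direction) were chosen with earlier results of these data known. A further planned gate is not reported here. Likeness was ranked among genes averaging at least 50 CPM, leaving 4 receptor segments unnamed. Promoter windows are RefSeq's, on GRCm38.p6. The near-identical Eno1b was at 3.82 to 5.51 CPM and Aldoart1, Aldoart2, Gapdhs and Ldhal6b at most 0.274; reads shared with such copies are uncertain.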

Additional observations from a re-analysis of the deposited data

Results flagged for a closer look

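For 2 results on the 10 genes the effect of a gate differed between lineages by a test of the difference itself, the CD8 difference minus the CD4 difference. With Pdcd1 it was -0.644 for Tpi1 and -0.398 for Pgk1 on the log2 scale. Both calls were lost with limma-voom, with thinned cells and with depth-matched cells, and Tpi1 changed sign when thinned (0.639). In CD4 cells Pdcd1-positive sums rested on as few as 14 Tpi1 UMIs in a library. No group had enough libraries for a search for single samples far from the rest.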

How the results depend on the processing

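Of 26 member differences called by edgeR, 6 were called in the same direction under every alternative tried. Over 466 alternative values, 385 kept direction and call, 75 kept direction only and 6 changed sign. Ldha changed sign with library totals in Foxp3-positive cells (0.0244). Pdcd1-positive cells changed sign when thinned: in CD4 Tpi1 (-0.736), Pgk1 (-0.223) and Pkm (-0.201), in CD8 Pkm (-0.0543), and the lineage difference of Tpi1 (0.639); thinning left as few as 13 such CD8 cells in a library. Otherwise the cause was not tested. Of 124 differences not called, 37 of 1898 alternative values were called in the same direction and 1 in the opposite one, Ldha in Mki67-positive cells with library totals (0.191). Called or not, 170 of these values changed sign, in 74 of the 124 differences.

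The number of members called moved as follows. Without the replicate block it was 2 (CD8 against CD4), 2 (Foxp3) and 0 (Nr4a1, both lineages); without the day block PPCA kept 0 in every gate. Thinning gave 3 (Foxp3), 1 (Pdcd1, CD4) and 0 (Nr4a1 in both lineages, and the Pdcd1 lineage difference). Depth matching gave 3 (Pdcd1, CD4, of 9 tested) and 0 (Nr4a1 in both lineages, and the Pdcd1 lineage difference, of 9 tested). Library totals gave 1 (day 4), 8 (Pdcd1, CD8) and 5 (Mki67), and DESeq2 size factors 4 (Mki67). The Y-linked factor gave 1 for PPCA in CD8 cells. Without the low-count filter Nr4a1 gave 2 in CD4 and 1 in CD8 cells. In Nr4a1 CD8 cells limma-voom, no doublet removal and the T cell rule alone each gave 1; for the Pdcd1 lineage difference they gave 0, 1 and 1. Leaving out each library gave 0 to 2 (Nr4a1, CD4), 1 to 2 (Nr4a1, CD8) and 0 to 2 (Pdcd1 lineage difference).

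Over all genes, the calls for PPCA ran from 0 to 131 in T cells, 0 to 147 in CD4 and 0 to 211 in CD8 cells (0 in edgeR each), 0 to 111 in Foxp3-positive cells (6) and 0 to 56 for its lineage difference (1). They ran from 606 (without PPCA day 3) to 3153 for day 4 (2452), 2026 to 5782 for CD8 against CD4 (5362) and 1165 to 3883 for Foxp3 (3154). For Nr4a1 they ran from 33 to 1046 in CD4 (608), 55 to 758 in CD8 (527) and 0 to 33 for the lineage difference (0). For Pdcd1 they ran from 793 to 3400 (2761), 1204 to 3670 (2758) and 80 to 876 (821), and for Mki67 from 1310 to 3556 (3183). PPCA calls in CD8 cells reached 211 when day 4 was left out, with 1 residual degree of freedom. Depth limits Slc2a1 and Tpi1 most.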
